A study of Bos grunniens with 18 samples.

Results

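The genes of protein processing in the endoplasmic reticulum (ER) were followed through a map of N6-methyladenosine (m6A), a methylated adenosine of messenger RNA, in the yak epididymis. The members were taken from the annotation that accompanies the data: every gene whose listed pathways include protein processing in endoplasmic reticulum, except genes with a symbol starting with HSPA. Of 175 pathway genes, 7 had such a symbol, which left 168 members among 18467 annotated genes. The rule itself uses the annotation and no measured value.

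The ER is where secreted and membrane proteins enter the secretory route. A nascent chain passes the translocon, receives an N-linked glycan, folds with the help of lectin chaperones and disulphide isomerases, and leaves in COPII-coated vesicles. Chains that do not fold are returned to the cytosol and broken down by the proteasome, and an overloaded ER sets off the unfolded protein response. Sperm mature in the epididymis, and its epithelium secretes much of the protein that sperm meet on the way.

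Tissue came from healthy male yaks (Bos grunniens) of 4 years, 6 animals in all, and was split into head (caput), body (corpus) and tail (cauda). Poly(A) RNA was fragmented, and antibody-enriched RNA (RIP) and unenriched RNA (input) were sequenced, so that each region has 3 RIP libraries and 3 input libraries. The files used here hold 1 list of candidate adenosines per region and 1 table per pair of regions, in which the authors compared sites. There were no treatments or mutants, the labels do not tie libraries to animals, and no value per library is used here, so no spread between replicates can be given and the depth behind each site is unknown.

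A site in those tables is a stretch of enriched RNA, often spliced, with the authors' fold between the regions, p-value and adjusted p-value, which the file headers name FDR. A site was called, and is described as higher or lower, when this adjusted p was under 0.05. Folds are the first-named region over the second. The sources used here do not say whether folds are relative to input, and in tissue RNA fewer cells of a type and less RNA per cell cannot be told apart, nor can either be told apart from methylation. Coordinates count from 1 on the authors' genome build, whose name is not given here.

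Most members carried a site. Of the 168 members, 110 (65.5%) had at least 1 site in at least 1 comparison, against 51.1% of all annotated genes and 52.4% of the 7259 genes with any listed pathway. The members without a site were 58. The count depends on how genes are duplicated in the annotation: 12 symbols are shared by 33 identifiers, of which 9 had a site, while 101 of the other 135 members did (74.8%). No share without shared symbols was computed for all annotated genes. Expression was not used to choose the genes in any of these shares, so the difference between members and all genes was not adjusted for it. UBE2D3, a ubiquitin-conjugating enzyme, has 6 identifiers and SKP1, a subunit of SCF ubiquitin ligases, has 5, and none of these identifiers had a site. Reads of such copies may be shared between them, so the absence of a site there is uncertain.
By role, unfolded protein response genes had a site in 22 of 26 members, folding enzymes of the ER lumen in 12 of 15, glycan trimming enzymes and lectins in 15 of 20 and cytosolic chaperones in 11 of 15. For ER-associated degradation the count was 32 of 57, for COPII export 7 of 13 and for translocation and glycosylation 10 of 20. Without the identifiers that share a symbol, ER-associated degradation had 30 of 39, COPII export 6 of 11 and translocation and glycosylation 10 of 18, with 19 of 22 for the unfolded protein response. The difference between roles was not tested. Among the translocon genes, SEC61A1, SEC61A2 and both identifiers of SEC61B, which form the channel itself, were without a site, while its partners SEC62 and SEC63 had them.

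Candidate adenosines of the members were mostly listed in every region. Positions that fell within the sites of 1 gene numbered 865 in the caput list, 866 in the corpus list and 892 in the cauda list. Together they made 1098 distinct positions, of which 666 (60.7%) were in all 3 lists and 239 (21.8%) in a single list. For the genes that are not members, 52.6% of positions were in all 3 lists and 23.1% in a single list. By gene, 73 of the 98 members with a candidate had candidates in all 3 regions (74.5%), against 69.8% of other genes. By peak, 324 of the 415 member peaks of the 3 lists overlapped a peak of both other regions by at least 1 base. In the caput this was 75% of member peaks, against 66.2% of all peaks, in the corpus 79.1% against 69.6%, and in the cauda 80.1% against 67.3%. Member peaks lie in genes with a site by construction, and among all peaks in such genes the shares were 70.8% in the caput, 73.2% in the corpus and 71.5% in the cauda. Member peaks also spanned more of the genome, with medians of 1571 bases in the caput, 1324 in the corpus and 1638.5 in the cauda, against 1036, 1037 and 1037 for peaks in a gene with a site, and the part of this length in the shares was not tested. These shares are a description of 1 list per region, with no test.

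The authors gave each candidate a prediction score and a class, from no m6A site to m6A site of very high confidence. Member candidates classed as m6A sites, of any confidence, were 151 in the caput (17.5%), 159 in the corpus (18.4%) and 160 in the cauda (17.9%). Their 95% Wilson intervals ran from 15.1 to 20.1% for the caput, from 15.9 to 21.1% for the corpus and from 15.6 to 20.6% for the cauda. In other genes the shares were 19.2%, 19.4% and 19.3%, inside those intervals, which cover counting error only. The intervals treat candidates as independent, although they lay in 86 genes in the caput, 88 in the corpus and 85 in the cauda. Most positions also recur between the lists, so the regions are not separate evidence. The score belongs to the position and not to the region, since each member position listed in several regions had the same score in each.

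HYOU1, a large chaperone of the ER lumen, held the most classed adenosines in the caput and corpus, with 10 of 42 candidates in each, and 10 of 40 in the cauda. CKAP4, which links rough ER to microtubules, had 7 of 26 in each region. NFE2L2, a transcription factor of the oxidative stress response that the kinase branch of the unfolded protein response also acts on, had 7 of 19 in the caput and 7 of 16 in both the corpus and the cauda. These genes were listed much alike along the duct. SEL1L, the scaffold of the HRD1 ligase that sends misfolded proteins out of the ER, had more in the cauda: 4 of 26 in the caput, 6 of 28 in the corpus and 10 of 34 in the cauda. Its sites had log2 folds from 0.11 to 0.21 for cauda over caput (FDR from 0.49 to 0.94) in the authors' deposited table. Each such span held equal numbers in caput and cauda, both of candidates and of classed adenosines. The folds for that pair therefore do not cover the added positions. For cauda over corpus the SEL1L folds ran from 0.074 to 0.15 (FDR from 0.76 to 0.83), also in the authors' deposited table. Here a span on chromosome 11 from 84144989 to 84146128 held 30 candidates in the cauda, 9 of them classed. In the corpus it held 23, with 5 classed, and its log2 fold was 0.15 (FDR = 0.83, the authors' deposited table). CANX, the membrane-bound lectin chaperone calnexin, had 4 of 18 in the caput and 7 of 34 in both the corpus and the cauda. ATF6, a stress sensor that is cut and released from the ER membrane, kept 6 classed adenosines in each region while its candidates numbered 42 in the caput, 36 in the corpus and 33 in the cauda. By contrast, OS9, a lectin that hands glycoproteins to degradation, had 19 candidates in the caput, 19 in the corpus and 20 in the cauda, and 0 were classed as m6A sites.

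**Figure D1:**
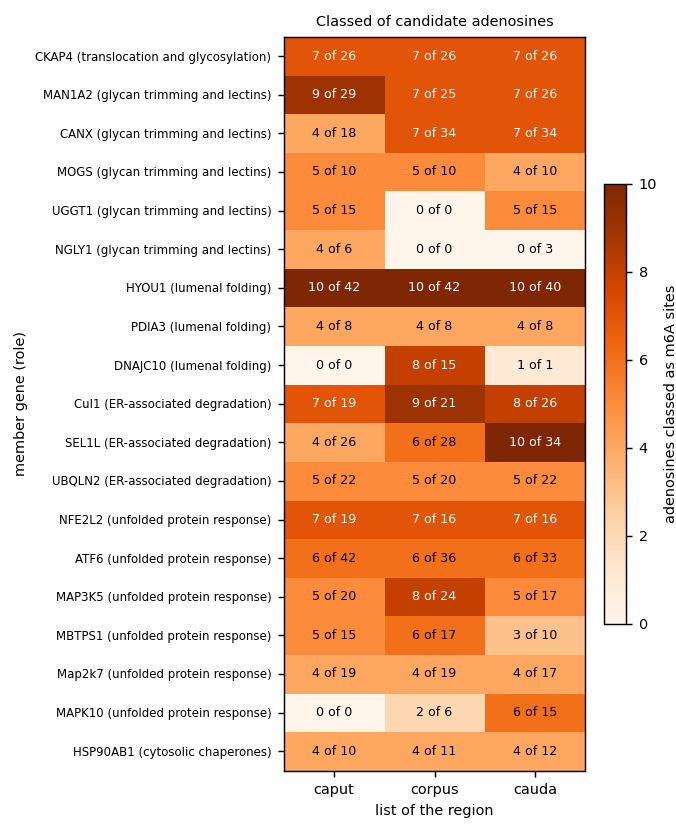
Number of adenosines classed as m6A sites, of all candidates, in the lists of caput, corpus and cauda (columns) for the 19 members with at least 4 classed in a region (rows, with their role); colour follows the classed number. The classed number is the same in all 3 columns for 8 of the 19 genes, such as CKAP4 with 7 of 26 in each, and differs for the rest, such as SEL1L with 4 of 26, 6 of 28 and 10 of 34, while UGGT1, DNAJC10, NGLY1 and MAPK10 have 0 of 0 in at least 1 region.

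Adenosines of the very high confidence class were found at 26 positions in 19 members, and 19 of these positions, in 15 genes, were listed in all 3 regions. This class made 2.66% of member candidates in the caput, 2.66% in the corpus and 2.35% in the cauda. In other genes the shares were 2.14%, 2.18% and 2.12%, near those of members. For the listing in all 3 regions no such share over other genes is given. UBE2D2, a ubiquitin-conjugating enzyme, had the highest score among the member positions in all 3, 0.76, at position 55233186 of chromosome 8. PDIA3, a disulphide isomerase that works with the lectin chaperones, had a pair of such positions, 59537598 and 59537634 on chromosome 17, each with a score of 0.727. RRBP1, a ribosome-binding protein of the rough ER, had scores of 0.733 and 0.703, and the co-chaperone DNAJA1 had 0.735 and 0.676. SEL1L had 0.726 and 0.684. The other genes with a very high position in every region were ERLEC1, ATF6, MBTPS1, UBXN6, UBXN4, Mapk8, HYOU1, UBQLN2, MOGS and CKAP4, with scores from 0.676 to 0.72. MBTPS1 is the protease that makes the first cut in ATF6, so the sensor and its protease both carried such a position, with scores of 0.715 for ATF6 and 0.713 for MBTPS1. The highest score of any member, 0.769 in MOGS, the glucosidase that starts glycan trimming, was at a position listed in the caput and corpus.

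**Figure D2:**
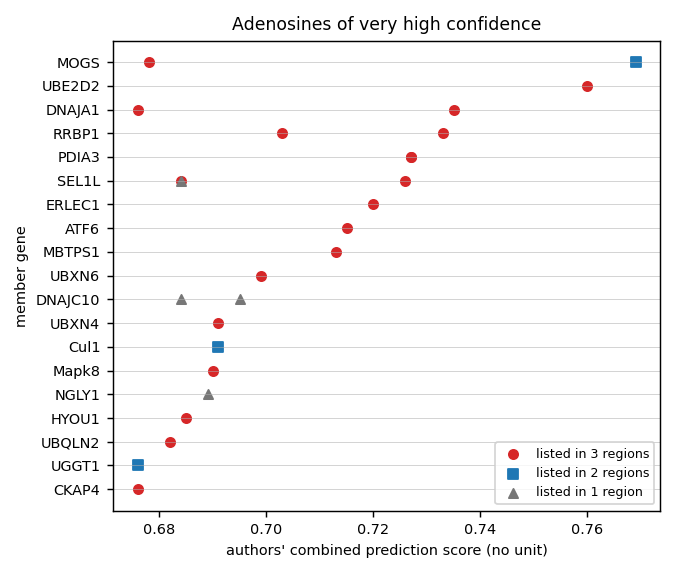
The authors' combined prediction score (horizontal axis, no unit) of each very high confidence adenosine in the member genes (vertical axis), with the symbol showing in how many of the 3 regional lists it stood. Circles, listed in 3 regions, make up 19 of the 26 positions; the PDIA3 circle stands for 2 positions of equal score.

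A few members had candidates within their sites in a single region. Caput alone had candidates of SEL1L2, a relative of SEL1L, and CRYAB, a small heat shock protein, among others. Corpus alone had XBP1, the transcription factor that IRE1 splices, SSR3 of the translocon-associated complex, UBE2G2 and Ube2j1, ubiquitin-conjugating enzymes of ER-associated degradation. UBE2G2 also had 1 peak in the cauda list, with 0 candidates counted for it. Cauda alone had BAX, a pore-forming cell death protein, Atf6b, the sister of ATF6, and RNF185, a ubiquitin ligase. Members with candidates in a single region made 10 of 98. Among other genes 496 of 8642 had candidates in the caput alone, 281 in the corpus alone and 419 in the cauda alone.

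The size of the fold varied among members whose candidates were listed in fewer than 3 regions, and the genes given here were chosen after their values were seen. DNAJC10, a co-chaperone that reduces disulphide bonds, had 15 candidates with 8 classed in the corpus, 1 in the cauda and 0 in the caput, but the site that held 10 of those from the corpus had a log2 fold of 0.12 for cauda over caput (FDR = 0.38, the authors' deposited table). The corpus itself was not part of that pair, and the 1 DNAJC10 site of cauda over corpus had -0.12 (FDR = 0.89, the authors' deposited table). XBP1 had 0 candidates in the cauda and 5 in the corpus. Its sites of cauda over corpus had log2 folds of 0.088 and 0.043 in the authors' deposited table. These spans held only 0 and 1 of the corpus candidates, so the folds do not cover most of them. UGGT1, which tests whether a glycoprotein is folded, had 15 candidates in the caput, 0 in the corpus and 15 in the cauda, and had no site in the pairs with the corpus. PREB, which loads the COPII coat protein SAR1, had 9 candidates with 2 classed within a site of the cauda list, 0 in the corpus and 0 in the caput. That site had a log2 fold of 0.56 for cauda over caput (FDR = 0.058), and a slightly longer span had 0.18 for cauda over corpus (FDR = 0.46), in the authors' deposited table. A further PREB site had 5 candidates in each region.

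In the corpus, set against the caput, 3 of 134 member sites in 88 genes were called, against 2.98% of all sites. That is 2.24% of member sites, a share near the background. Of these, 1 was higher (1.12% of all sites were) and 2 were lower (1.86% of all sites were). A site of SEL1L2 was lower in the corpus, with a log2 fold of -3.37 on chromosome 12 from 83870380 to 83897570, plus strand, in the authors' deposited table. Within it lay 0 candidates of the corpus list and 4 of the caput list, and 0 of these were classed as m6A sites. Its p is listed as exactly 0, so no strength of evidence can be read from it. A site of MAN1C1, a mannosidase of the Golgi that trims N-glycans, was also lower, with a log2 fold of -1.59 (p = 0.000977, FDR = 0.043) in the authors' deposited table. It lay on chromosome 2 from 10155330 to 10158000, plus strand, and held 0 candidates in the corpus and 2 in the caput, 0 of them classed. The called site of Pdia6, a disulphide isomerase, had a log2 fold of 0.07 (FDR = 0.042) in the authors' deposited table, so the difference was small, and its span held 0 candidates in any region. There is a second PDIA6 identifier among the members, so its reads may be shared.

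At an unadjusted p under 0.05, 5 member sites were positive and 7 negative in corpus over caput, 8.96% of member sites against 16.4% of all sites (7.21% positive and 9.24% negative). Those with the largest positive log2 folds were sites of SEC24A, a cargo adaptor of the COPII coat (0.735, FDR = 0.33), Cul1, the scaffold of SCF ligases (0.735, FDR = 0.31), and SEC31A, of the outer COPII coat (0.60, FDR = 0.068), in the authors' deposited table. SEC31A held 5 candidates in the corpus, 2 of them classed, and 0 in the caput within that span. Among sites at an unadjusted p under 0.05, SEC63 of the translocon had the most negative log2 fold that was not called, -0.61 (FDR = 0.12, the authors' deposited table), with 3 candidates in the corpus and 4 in the caput.

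In the cauda, set against the caput, 0 of 137 member sites in 85 genes were called, against 2.27% of all sites (1.41% higher and 0.861% lower). The authors' test is not named in the sources used here. At an unadjusted p under 0.05 there were 12 member sites, 7 positive and 5 negative, or 8.76%, against 17.2% of all sites (10.5% positive and 6.68% negative). A site of Cul1 had the largest positive log2 fold of these, 0.73 (FDR = 0.25), followed by UBXN6, a cofactor of the segregase VCP (0.66, FDR = 0.078), and PREB, given above, in the authors' deposited table. This Cul1 site, on chromosome 4 from 7205199 to 7205398, was not the one named for corpus over caput. That one had 0.42 (FDR = 0.33) for cauda over caput, and further Cul1 sites had -0.034 and 0.036, in the authors' deposited table. Of the same 12 sites, the 3 most negative belonged to the gene described in the files as BCL2 associated athanogene 2, a co-chaperone (-0.50, FDR = 0.23), MOGS (-0.39, FDR = 0.23) and CANX (-0.047, FDR = 0.17) in the authors' deposited table. The MOGS site held 0 candidates in the cauda and 2 in the caput, and the position with the highest member score was 1 of them. Another MOGS site had a log2 fold of 0.1 for cauda over caput (FDR = 0.81) in the authors' deposited table.

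In the cauda, set against the corpus, 1 of 136 member sites in 82 genes was called, or 0.735%, against 1.96% of all sites (1.24% higher and 0.719% lower). It was the site of UBXN6, which was higher in the cauda with 0.84 as its log2 fold (p = 0.000145, FDR = 0.018), on chromosome 8 from 20690211 to 20690511, plus strand, in the authors' deposited table. UBXN6 was listed alike in the regions, with 6 candidates in the cauda and 5 in the corpus, 1 of them of very high confidence in each. For cauda over caput the same span had 0.66, and for corpus over caput a slightly shorter span had -0.19 (FDR = 0.88), in the authors' deposited table; these comparisons share libraries. At an unadjusted p under 0.05, 10 member sites were positive and 3 negative, 9.56% of member sites against 16.4% of all sites (9.71% positive and 6.68% negative). BAX had the largest log2 fold, 1.24, which was not called (FDR = 0.14, the authors' deposited table), with 1 candidate in the cauda and 0 in the corpus. For cauda over caput a longer span around it had only 0.19 (FDR = 0.68, the authors' deposited table), with 0 candidates in the caput. Among sites at an unadjusted p under 0.05, Cul1 (0.41, FDR = 0.36) came next after UBXN6, and LMAN1, a cargo receptor for glycoproteins (-0.32, FDR = 0.32), BAG1, a co-chaperone (-0.24, FDR = 0.29), and ATF6 (-0.22, FDR = 0.29) were the most negative in the authors' deposited table. Other Cul1 sites of cauda over corpus ran from -0.48 to 0.069 in the authors' deposited table. Other sites of LMAN1 (0.146 and 0.165), BAG1 (0.161) and ATF6 (0.025) were positive for cauda over corpus in the authors' deposited table.

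**Figure D3:**
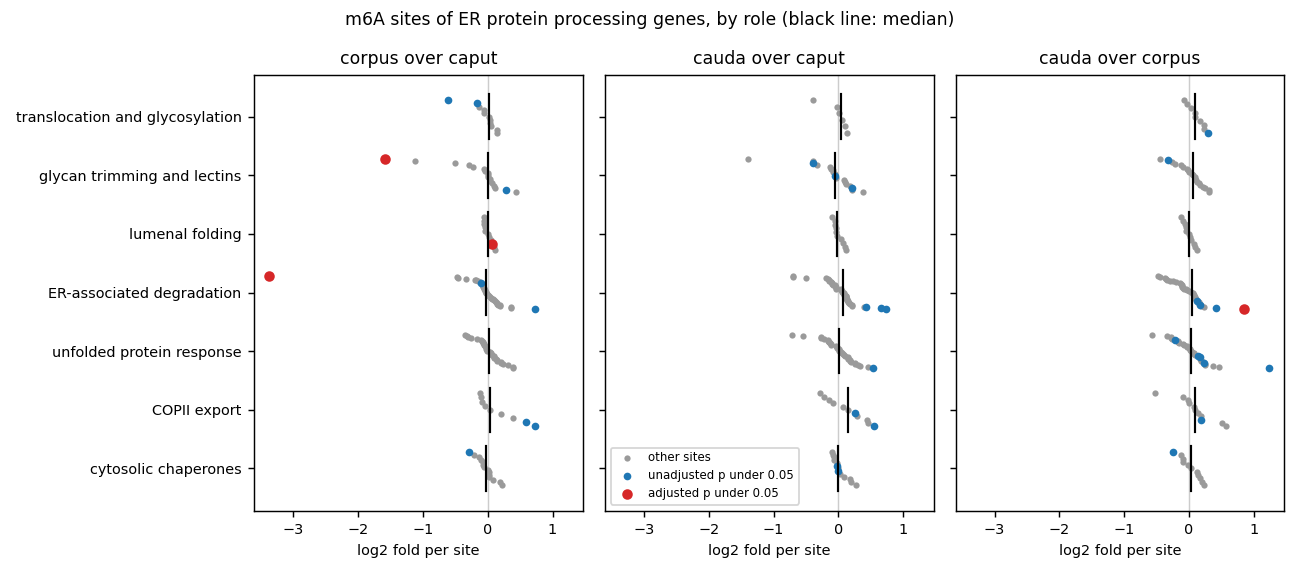
Log2 fold of every member site with a gene symbol (horizontal axis) by role (vertical axis) in the 3 comparisons, with red points at an adjusted p under 0.05, blue points at an unadjusted p under 0.05 only, grey points for other sites and a black line at the median of each role. The 4 red points are SEL1L2 at -3.37, MAN1C1 at -1.59 and Pdia6 at 0.07 for corpus over caput, and UBXN6 at 0.84 for cauda over corpus.

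Differences at member sites were small in size. The median absolute log2 fold was 0.093 for corpus over caput, against 0.197 over all sites and 0.183 over sites of genes with any pathway. For cauda over caput it was 0.123, against 0.213 over all sites and 0.199 with any pathway. For cauda over corpus it was 0.129 (0.2 over all sites and 0.191 with any pathway). The middle 50% of member log2 folds ran from -0.078 to 0.10 for corpus over caput, and that of all sites from -0.22 to 0.17. The signed medians were near 0 for members as for all sites, at -0.00053 and -0.02 for corpus over caput, 0.02 and 0.043 for cauda over caput, and 0.044 and 0.046 for cauda over corpus, in the authors' deposited table. No test of the members as a group was run, so the narrower spread is a description. Member sites had the usual length, with a median of 249.5 bases for corpus over caput (251 over all sites), and 63.4% of them were spliced, against 58.1%.

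**Figure D4:**
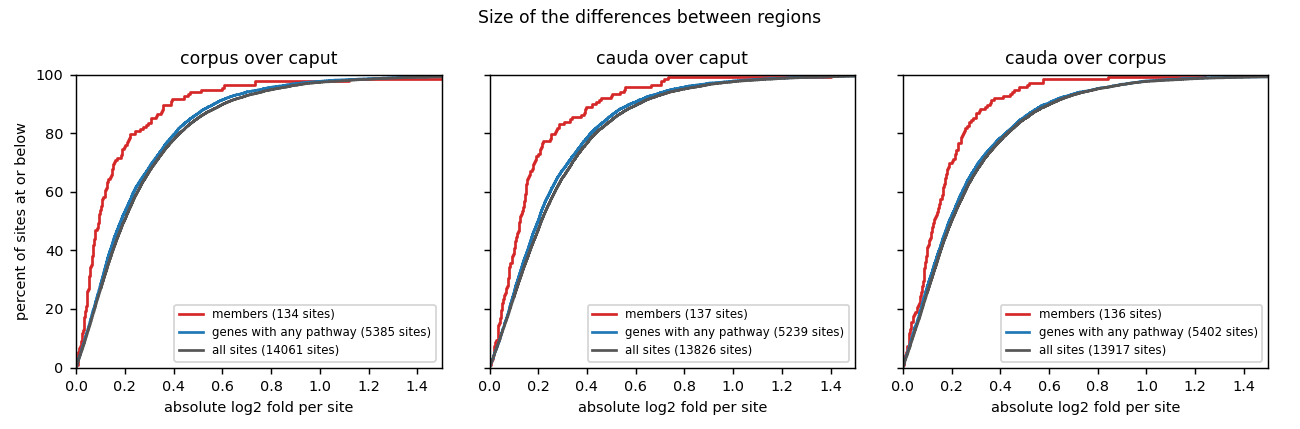
Cumulative percent of sites (vertical axis) by absolute log2 fold (horizontal axis, drawn up to 1.5) for member sites (red), sites of genes with any pathway (blue) and all sites (dark grey) in the 3 comparisons. The red curve lies above the others over most of the axis in each panel; the member medians are 0.093 for corpus over caput, 0.123 for cauda over caput and 0.129 for cauda over corpus.

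Sites that differed at least 2-fold were 3 of 134 for corpus over caput (2.24%, against 2.67% of all sites), 1 of 137 for cauda over caput (0.73%, against 2.45%) and 1 of 136 for cauda over corpus (0.735%, against 2.37%). Of these 5 sites, 3 were in the class I mannosidases, which trim mannose from N-glycans, a grouping made after the values were seen. Besides MAN1C1 they were MAN1A2 at -1.12 for corpus over caput (FDR = 0.57) and MAN1A1 at -1.40 for cauda over caput (FDR = 0.41), which were not called, in the authors' deposited table. Each of the 5 sites at least 2-fold apart, those of SEL1L2, MAN1C1, MAN1A2, MAN1A1 and BAX, held candidates in fewer than 3 of the regional lists. Many sites of any fold lacked candidates in a region. In the same order of comparisons, 88 of 134, 87 of 137 and 85 of 136 member sites had a candidate in both compared regions. Over all sites these were 8652 of 14061, 8406 of 13826 and 8469 of 13917. A relation between listing and fold was not tested. Other sites of MAN1A2 went either way for corpus over caput, at 0.44 (FDR = 0.62) and -0.51 (FDR = 0.47), in the authors' deposited table.

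Folding enzymes of the lumen had the smallest differences among the roles, with a median absolute log2 fold of 0.057 over 11 sites for corpus over caput, 0.051 over 10 sites for cauda over caput and 0.057 over 11 sites for cauda over corpus. In the authors' deposited table their log2 folds stayed between -0.064 and 0.11 for corpus over caput, between -0.094 and 0.12 for cauda over caput and between -0.12 and 0.12 for cauda over corpus. For corpus over caput 1 of the 11 sites, that of Pdia6 given above, was called, against 2.98% of all sites. None was called for cauda over caput or cauda over corpus, against 2.27% and 1.96% of all sites. PDIA3 had 0.057 for corpus over caput, at a site without candidates, and 0.096 for cauda over caput and 0.095 for cauda over corpus at the site of its very high positions, and the disulphide isomerase P4HB had -0.064 for corpus over caput and 0.025 for cauda over corpus, in the authors' deposited table. ERP29, a lumenal folding factor, had -0.037, -0.019 and 0.014 in the same order of comparisons in the authors' deposited table, with 3 of 4 candidates classed in each region. HYOU1 had 0.11 for corpus over caput at a site without candidates, and -0.048 and -0.034 for cauda over caput at the sites that held them, in the authors' deposited table. The lectin chaperone CALR lay as close to 0, at 0.0051 for corpus over caput and -0.055 for cauda over caput in the authors' deposited table.

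COPII export genes had the largest median absolute log2 fold in the comparison of cauda with caput, 0.249 over 11 sites, with a signed median of 0.14. For corpus over caput these were 0.125 and 0.037 over 9 sites, and for cauda over corpus 0.135 and 0.098 over 11 sites. None of the COPII sites was called in any of the 3 comparisons, against 2.98%, 2.27% and 1.96% of all sites in that order, while 2 positive sites for corpus over caput, 2 for cauda over caput and 1 for cauda over corpus had an unadjusted p under 0.05. Over all sites 16.4%, 17.2% and 16.4% had such a p, so these counts are near the background. They were sites of SEC24A and SEC31A, then PREB and SEC24D, then SEC31A.

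The stress sensors and factors of the unfolded protein response had 0 called sites. EIF2AK3, the sensor of the kinase branch, was not among the members and is not covered. Across the role, 0 of 32 sites of corpus over caput, 0 of 35 of cauda over caput and 0 of 35 of cauda over corpus were called, against 2.98%, 2.27% and 1.96% of all sites. At an unadjusted p under 0.05 there were 0, 1 and 5 in that order, against 16.4%, 17.2% and 16.4% of all sites. With so few sites, 0 called is near the background. ATF4, the transcription factor made when the kinase branch slows translation, came closest, with a site at 0.14 for cauda over corpus (p = 0.000912, FDR = 0.052) in the authors' deposited table. That site held 7 candidates in the cauda, 1 of them classed, and 0 in the corpus. A second ATF4 site had 0.074 for cauda over corpus (FDR = 0.87) and another 0.0037 for cauda over caput (FDR = 0.98) in the authors' deposited table. ATF4 also has a second identifier among the members, without a site.
ATF6 had 3 sites, of which the middle one, on chromosome 3 from 9802664 to 9858776, had log2 folds of -0.064 for corpus over caput, -0.27 for cauda over caput and -0.22 for cauda over corpus in the authors' deposited table. Its FDR ran from 0.29 to 0.51. The site before it, from 9786448 to 9802466, had 0.21, 0.25 and 0.025 in the same order in the authors' deposited table. Within 1 gene, then, neighbouring sites had opposite signs in all 3 comparisons, though for cauda over corpus 1 value was only 0.025, with none called.
Ern1, the sensor IRE1 that splices XBP1, had log2 folds of 0.20 and -0.31 for corpus over caput, 0.15 for cauda over caput and 0.17 and 0.21 for cauda over corpus (FDR from 0.33 to 0.78, the authors' deposited table). XBP1 had sites in the comparisons with the cauda, with log2 folds of 0.18, 0.068 and -0.016 for cauda over caput in the authors' deposited table. DDIT3, the cell death factor CHOP, had -0.033 for corpus over caput, 0.14 and 0.11 for cauda over caput and 0.17 for cauda over corpus in the authors' deposited table. All DDIT3 sites overlapped sites of MARS1, so their signal cannot be assigned to 1 gene from the lists. Sites of SSR1 overlapped those of RIOK1, and a site of DDOST overlapped that of PINK1. PPP1R15A, which reverses the translation block, had the longest member sites, up to 1985 bases, with log2 folds of -0.01, -0.021 and -0.0043 in the same order of comparisons in the authors' deposited table. EIF2AK1, a kinase of the same initiation factor, had -0.031, -0.55 and -0.57 at a span without candidates (FDR from 0.47 to 0.98, the authors' deposited table).

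Site borders often differed between the tables, and 24 member sites had the same start and end in all 3 tables. Of these, 21 had every absolute log2 fold under 0.5 and all 24 under 1. Cul1 had 0.73 for corpus over caput, 0.42 for cauda over caput and -0.30 for cauda over corpus, in the authors' deposited table. CKAP4, with a site of 1279 bases on chromosome 5 from 35129136 to 35130414, had -0.16 (FDR = 0.25), 0.14 (FDR = 0.73) and 0.29 (FDR = 0.11) in that order in the authors' deposited table, the lowest value being in the corpus. RAD23B, a shuttle to the proteasome, had -0.029, -0.077 and -0.049 in the same order in the authors' deposited table. The cytosolic chaperones HSP90AA1 and HSP90AB1 had log2 folds from -0.13 to 0.13 over their 8 sites in the 3 comparisons, in the authors' deposited table. No site of the cytosolic chaperones was called, of 14 for corpus over caput, 13 for cauda over caput and 11 for cauda over corpus, which is near the background of 2.98%, 2.27% and 1.96% of all sites.

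**Figure D5:**
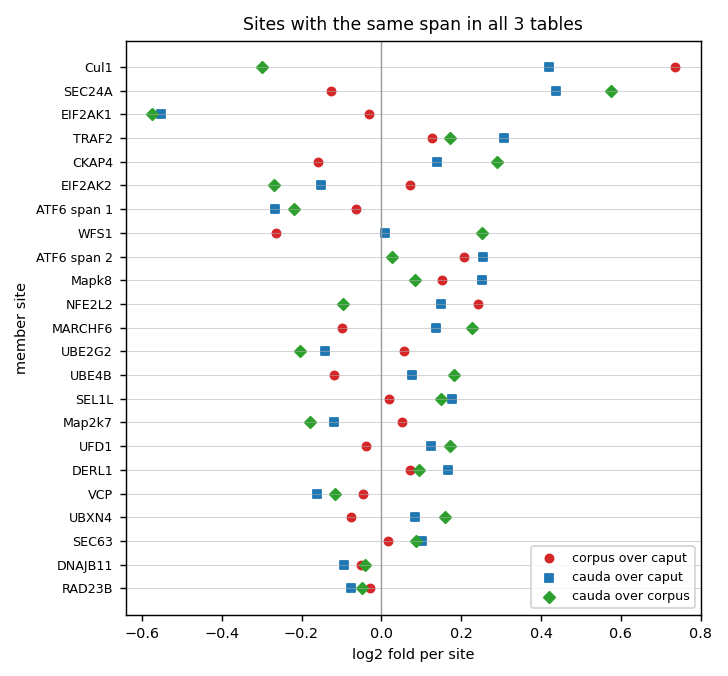
Log2 fold (horizontal axis) of 23 of the 24 member sites with the same span in all 3 tables (vertical axis, sorted by the largest absolute fold) for corpus over caput (circles), cauda over caput (squares) and cauda over corpus (diamonds). All but the sites of Cul1, SEC24A and EIF2AK1 lie between -0.5 and 0.5; each pair of comparisons shares a region.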

How the data were processed

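Per the submitters' processing notes, Trimmomatic, HISAT2 and deepTools were used, without versions. Peak caller, site predictor and differential test were not given in the sources used here. The authors deposited, per the file headers, a combined prediction score and class for each candidate adenosine of a region. Per the file headers, the comparison tables give a p-value and adjusted p-value, a ratio (fold) and its log2 value per site. The 9 columns of expression values carry codes that match no label and were not used, so the planned limma test and marker checks were not run.

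Members, role lists and tests were chosen with earlier results of these data known. Repeated lines were merged, each position keeping its highest score. Positions and peaks were assigned to genes by overlap of at least 1 base with site spans (intervaltree 3.1.0, tested on simulated data, pandas 2.3.3). Counts per gene use positions in the spans of 1 gene. Wilson intervals came from statsmodels 0.14.6. Fold direction was checked on unspliced sites listed in 1 region of a pair: median log2 folds were 0.32, 0.39 and 0.40 for the first-named region alone, and -0.38, -0.27 and -0.30 for the second. Named sites are all sites with an adjusted p under 0.05 and the 3 highest and 3 lowest folds at an unadjusted p under 0.05. Stress sensor sites are named too. Named genes are those with a very high confidence position in every region or with candidates in 1 region. Some member genes are not reported here by name. Other genes were named after their values were seen. No sequence is shown, since no genome of the authors' build was used here.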

Additional observations from a re-analysis of the deposited data

How the results depend on the processing

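Of 51 recomputed values, 39 kept within 1.5 times of the reported count or kept their call. Some of these could not have changed, so the tally was partly fixed in advance. Stricter filters cannot alter 0 calls for cauda over caput, and called sites always pass an unadjusted p under 0.05. The member sites called were 3 for corpus over caput, 0 for cauda over caput and 1 for cauda over corpus. At an unadjusted p under 0.05 these were 12, 12 and 13. With HSPA genes kept in, they were 5 for corpus over caput and 1 for cauda over caput. With unspliced sites only, the count was 0 for corpus over caput, and with a fold of at least 2 required it was 0 for cauda over corpus; fewer sites qualify by construction. Members with a candidate peak were 89 in the caput, 91 in the corpus and 89 in the cauda, and 35, 35 and 36 when an adenosine of high or very high confidence was required. The calls of Pdia6 and UBXN6 were lost when a fold of at least 2 was required. The median absolute log2 fold of members moved by less than 1.5 times under 4 alternatives chosen after seeing the data, from 0.0705 to 0.109 for corpus over caput, 0.118 to 0.14 for cauda over caput and 0.107 to 0.165 for cauda over corpus, each below the value of all sites under the same setting. The share of member sites at an unadjusted p under 0.05 exceeded that of all sites in 1 of these settings, unspliced sites of cauda over caput (20% and 17.3%). No paired analysis was possible because the result comes from no test on libraries: the tables hold no values per library, so leaving out replicates was not run either. Depth per site is unknown.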
